A study of Mus musculus with 24 samples.

Results

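The liver turns the nitrogen of amino acids into urea and glutamine. The genes described are the 5 enzymes of the urea cycle (Cps1, Otc, Ass1, Asl and Arg1), the enzyme that makes the activator of CPS1 (Nags), the ornithine carrier of the mitochondrial inner membrane (Slc25a15), liver glutaminase (Gls2) and glutamine synthetase (Glul). They were taken by gene name from the expression tables, and make up 9 of 54733 genes listed there. All 9 averaged 1 FPKM (fragments per kilobase of transcript, scaled to the fragments sequenced) or more over the libraries and so were among the 11244 genes tested.

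The data are RNA-seq profiles of poly(A)-tailed RNA from whole livers of adult male C57BL/6 mice. WT mice were compared with homozygous ΔRRE mice, which carry a CRISPR-Cas9 deletion of both REV-ERB/ROR response elements (RREs) near the start of Bmal1 (Arntl in the tables). Livers were collected in constant darkness at projected circadian times CT2, CT6, CT10, CT14, CT18 and CT22, with 2 libraries per genotype and time, 24 in all. The mice had free access to chow, and the mutants were of 1 line unless the study says otherwise. The study's methods give n = 2 for the livers harvested per genotype and time, while the labels give replicate numbers only. The p-values measure the spread between these libraries. The deletion serves to ask what the rhythm of Bmal1 transcription adds to the rhythms of its output genes, and here that question is put to the genes of nitrogen disposal.

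Ammonia enters the cycle in the mitochondria of periportal hepatocytes, where CPS1, switched on by the N-acetylglutamate that NAGS makes, joins it to bicarbonate, and OTC passes the product on to ornithine. Citrulline is exported in exchange for ornithine by the carrier that Slc25a15 encodes, and ASS1, ASL and ARG1 complete the cycle in the cytosol, releasing urea. Glutaminase feeds ammonia to CPS1 in the periportal cells, while the ammonia that escapes is captured by glutamine synthetase in the thin layer of cells around the central vein. In bulk liver, fewer cells of a type and less RNA per cell cannot be told apart.

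The 250 bases upstream of the RefSeq start (build GRCm38.p6) are shown for 3 members. Nags passed the test of a rhythm, Glul and Otc did not, and the windows of Nags and Glul both hold the core hexamer of an RRE, the element type that was deleted at Bmal1. Capitals mark the hexamer, AGGTCA on the coding strand of Glul and its reverse complement TGACCT in Nags.
Nags, chr11:102145263-102145512, plus strand: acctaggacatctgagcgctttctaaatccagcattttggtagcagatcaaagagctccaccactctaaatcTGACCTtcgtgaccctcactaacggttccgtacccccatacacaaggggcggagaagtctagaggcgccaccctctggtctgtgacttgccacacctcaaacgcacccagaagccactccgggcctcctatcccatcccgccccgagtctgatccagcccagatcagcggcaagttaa
Glul, chr1:153899679-153899928, plus strand: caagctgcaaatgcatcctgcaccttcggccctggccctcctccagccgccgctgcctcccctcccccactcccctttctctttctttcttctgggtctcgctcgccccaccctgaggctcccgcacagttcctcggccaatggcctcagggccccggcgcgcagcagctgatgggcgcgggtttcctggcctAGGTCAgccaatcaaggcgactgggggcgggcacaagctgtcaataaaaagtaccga
Otc, chrX:10252055-10252304, plus strand: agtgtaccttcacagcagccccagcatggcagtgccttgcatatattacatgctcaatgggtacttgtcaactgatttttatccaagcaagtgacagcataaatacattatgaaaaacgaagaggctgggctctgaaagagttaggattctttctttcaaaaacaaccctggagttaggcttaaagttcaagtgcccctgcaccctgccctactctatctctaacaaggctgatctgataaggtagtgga
The hexamer starts 178 bases before the start of Nags and 57 bases before that of Glul, and 16.3% of the 32851 promoter windows in the table (250 bases before and 50 after the start) hold one on either strand. The E-box CACGTG, the element bound by CLOCK and BMAL1 and present in 7.15% of all windows, was found in the windows of Ass1, 36 bases before the start, and of Slc25a15, 77 bases before 1 of its 2 starts. The Otc window held none of the letters searched, which also included the D-box (TTATGTAA or TTACGTAA, 1.06% of windows), the cAMP response element (TGACGTCA, 1.79%) and the core of a glucocorticoid receptor element (AGAACA, 19% of windows), all on both strands. Each match is a description of the letters and not a binding site. The table gave windows for 5 of the 9 members.

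As a check of the labels, Arntl followed a wave of amplitude 2.57 (log2 scale) in WT and 0.29 in ΔRRE. It was the single gene of 11244 whose rhythm differed between the genotypes (limma, Benjamini-Hochberg adjusted p = 0.0463). This call was kept in 5 of the 24 fits that left out 1 library (adjusted p from 0.00284 to 0.198) and lost without the 2 libraries described next (0.437), where the amplitudes of Arntl were 2.57 and 0.30. Hepatocyte markers were high in every library, with Alb between 18568 and 35758 FPKM, and the summed FPKM of all genes ranged from 554170 to 624746. FPKM do not give the number of reads, so the depth behind each value is unknown.

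Libraries ΔRRE CT10 replicate 1 and ΔRRE CT14 replicate 1 stood apart from the other 22 in these genes. Their ratio of Gls2 to Glul was 1.68 and 1.69, against 0.260 to 0.672 elsewhere. The 2 libraries were picked by this ratio, so values of Gls2 and Glul without them are not an independent check. The 5 cycle enzymes together held 5931 and 6159 FPKM in these libraries, or 1.05% and 1.11% of all FPKM, while the others held 3015 to 5138 FPKM. Both were also highest for the summed erythroid markers (4322 and 4451 FPKM, others 466 to 2062), with 4 of 5 markers above the other 22 libraries in both. Of the 6 periportal markers, 1 lay above the range of the others in both libraries (Sds, 508 and 642 FPKM, others at most 339), 3 in 1 of them (Pck1, Hal and Hsd17b13), and Cyp2f2 and Cdh1 lay within it. Of the 7 pericentral markers, Cyp1a2 (167 and 168 FPKM, others at least 238) and Slc22a3 lay below the range in both and Gulo in 1, while the other 4 (Cyp2e1, Lgr5, Axin2 and Lhpp) lay within it. The part of these differences in the results was not tested, and results that rest on both libraries are given with and without them.

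In level, the 9 genes lay between the 87.0th and the 99.5th percentile of the genes tested. Ass1 stood highest, with a median of 1798 FPKM over the 24 libraries, followed by Arg1 at 869.9, Cps1 at 792, Glul at 268, Asl at 256, Otc at 178, Gls2 at 135, Slc25a15 at 93.9 and Nags at 37.9 FPKM. FPKM are scaled to transcript length, so these levels can be set side by side. Ass1 lay above Arg1, Cps1 above Glul, Gls2 above Slc25a15 and Slc25a15 above Nags in 24 of 24 libraries. Arg1 was above Cps1 in 19 libraries, Asl above Otc in 20 and Otc above Gls2 in 22. Glul was above Asl in only 14, so the order of Glul and Asl did not hold beyond their spread. The highest member was thus an enzyme of the cytosolic steps of the cycle, and the lowest was the enzyme of its activator.

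**Figure D1:**
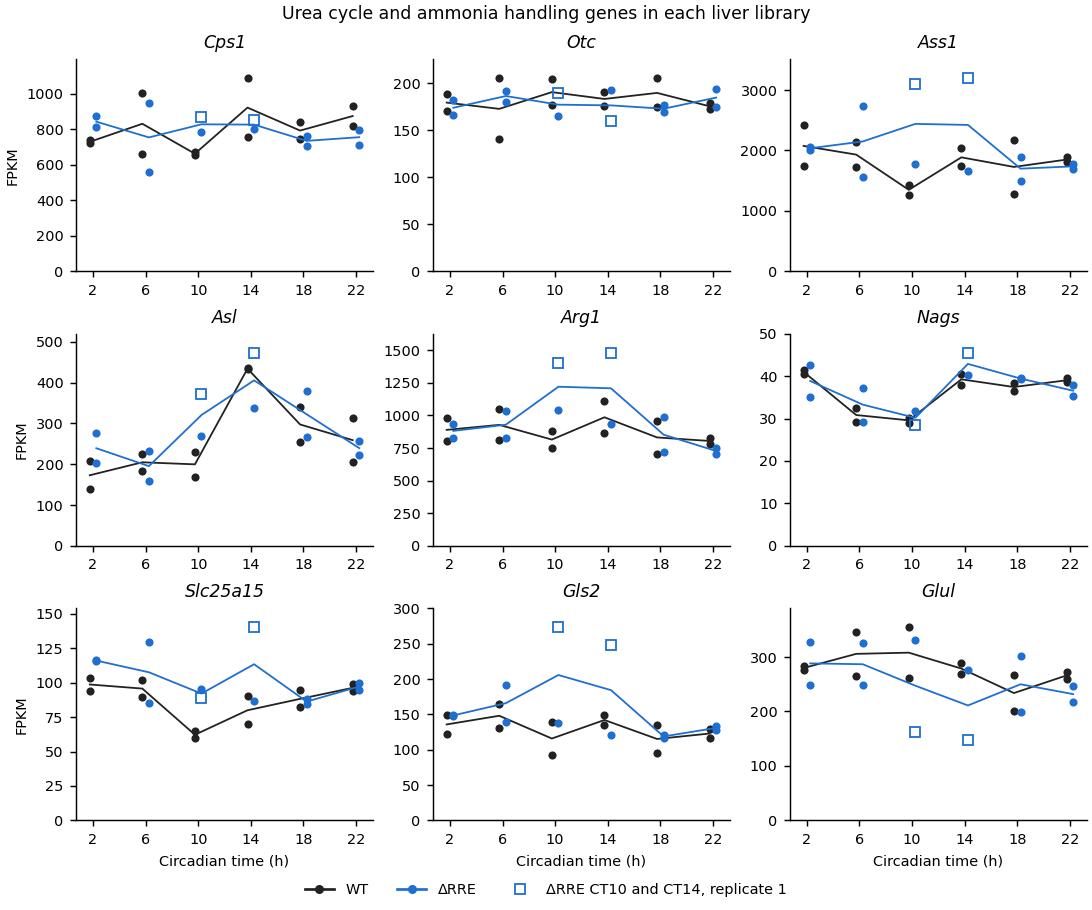
FPKM of the 9 genes (vertical axes, from 0) against circadian time in hours, with 1 point per library and lines through the means of 2 libraries; black is WT and blue ΔRRE, and open squares are ΔRRE CT10 replicate 1 and ΔRRE CT14 replicate 1. Asl is highest at CT14 in both genotypes, Nags is lowest at CT10, and the open squares lie above every other library for Ass1, Arg1 and Gls2 and below every other for Glul.

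Rhythms were tested by fitting a wave of 24 h to log2(FPKM + 0.1), where the amplitude is the distance from the mean to the peak on the log2 scale. Over both genotypes together, 2 of the 9 members, Asl and Nags, passed an adjusted p under 0.05 (limma), beside 30.6% of all genes tested. The median amplitude of the members was 0.17, and that of all genes tested was also 0.17. The share of members called, 22.2%, was thus no higher than that of the liver's genes at large. Cps1, Otc and Ass1 had pooled amplitudes of 0.04, 0.02 and 0.08 on the log2 scale.

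**Figure D2:**
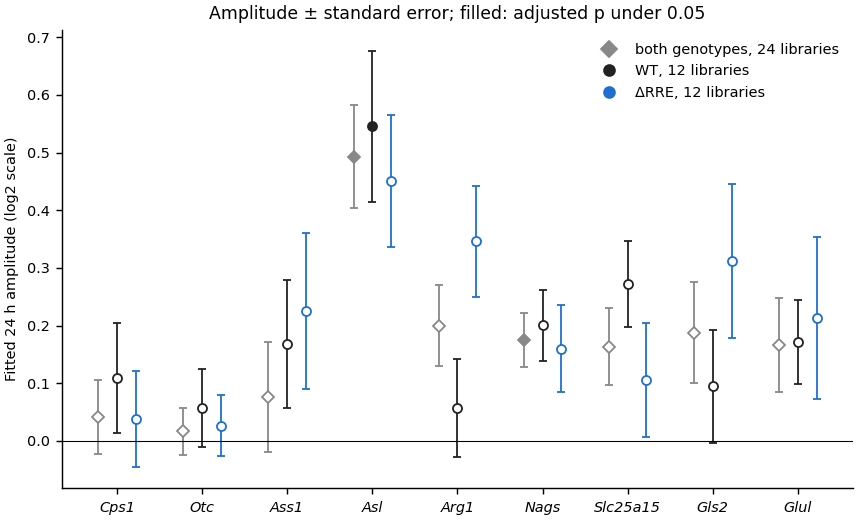
Fitted 24 h amplitude on the log2 scale (vertical axis) of each gene, with standard errors; grey diamonds are both genotypes together, black circles WT and blue circles ΔRRE, and filled symbols have an adjusted p under 0.05. Asl has the largest amplitude in each of the 3 fits, 0.49, 0.55 and 0.45, and Nags is the only other gene with a filled symbol.

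Asl encodes argininosuccinate lyase, which splits argininosuccinate into arginine and fumarate. The gene lies at chr5:130011258-130029247 on the minus strand, with 18 exons in the principal transcript (GRCm38). The WT libraries (replicates 1 and 2) held 208 and 138 at CT2, 226 and 183 at CT6, 169 and 230.4 at CT10, 434 and 435 at CT14, 339.7 and 255 at CT18 and 312 and 206 at CT22, in FPKM of Asl. In ΔRRE, the Asl values were 276 and 203 at CT2, 159 and 232 at CT6, 373 and 269 at CT10, 473 and 338 at CT14, 379 and 266 at CT18 and 257 and 222 at CT22. The CT14 libraries of WT were its 2 highest, at 434 and 435 FPKM against at most 339.7 at other times. How many of all genes show such a separation at a time was not counted. In ΔRRE, CT14 replicate 1 was also the highest of all, but CT14 replicate 2 lay below the highest libraries of CT10 and CT18, so the times overlapped. The mean over both genotypes was 2.1-fold higher at CT14 (420.0 FPKM) than at CT6 (200.1 FPKM).

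The wave of Asl had an amplitude of 0.49 ± 0.09 (SE, log2 scale, n = 24 libraries) and a fitted peak at CT15.4 (limma, adjusted p = 0.00083). In WT alone the amplitude was 0.55 with a peak at CT15.9, and in ΔRRE 0.45 with a peak at CT14.8 (limma, adjusted p = 0.0429 and 0.0776). The pooled call held without any 1 library, with adjusted p between 0.000335 and 0.0025, and without the 2 libraries that stood apart (0.00253). The WT call did not: it was lost in 8 of the 12 fits that left out 1 WT library, with an adjusted p of up to 0.108 without CT14 replicate 2. The waves of WT and ΔRRE did not differ past the threshold (limma, adjusted p = 0.9999; two-sided exact permutation p = 0.7005), a test that does not show them to be alike.

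Nags, at chr11:102145513-102149477 on the plus strand, with 7 exons in the principal transcript, encodes N-acetylglutamate synthase, which makes the obligatory activator of CPS1. The WT libraries (replicates 1 and 2) held 40.6 and 41.5 at CT2, 32.5 and 29.2 at CT6, 29.0 and 30.1 at CT10, 38.0 and 40.5 at CT14, 38.3 and 36.6 at CT18 and 38.6 and 39.5 at CT22, in FPKM of Nags. In ΔRRE, the Nags values were 35.0 and 42.7 at CT2, 29.3 and 37.3 at CT6, 28.5 and 31.9 at CT10, 45.5 and 40.3 at CT14, 39.3 and 39.6 at CT18 and 37.9 and 35.3 at CT22. The 4 WT libraries of CT6 and CT10 held 29.0 to 32.5 FPKM and did not overlap with the other 8, at 36.6 to 41.5 FPKM. These times were not grouped in advance, and the share of all genes with such a separation was not counted. In ΔRRE the low values were again at CT6 and CT10, at 28.5 to 37.3 FPKM, but they overlapped with the other times, at 35.0 to 45.5 FPKM, because of CT6 replicate 2. The swing was small, 1.37-fold between the CT14 and CT10 means of both genotypes (41.1 and 29.9 FPKM).

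The pooled wave of Nags had an amplitude of 0.17 ± 0.05 (SE, log2 scale, n = 24 libraries) and a peak at CT20.0 (limma, adjusted p = 0.0205). Neither genotype alone passed the test, with adjusted p of 0.112 in WT and 0.372 in ΔRRE (limma). The pooled call was kept without any 1 library (adjusted p from 0.0120 to 0.0434) and without the 2 libraries that stood apart (0.0281). A wave of 24 h described this profile in part: it took up 41.4% of the variance of log2 Nags over the libraries, and 6 free time means took up 77.5% (limma, time as a factor, adjusted p = 0.00144). Nags overlaps an antisense gene, Gm11586, whose median was 3.07 FPKM; the strand setting of the counting is not given in the sources used here.

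In WT alone, 1 of 9 members passed the test (Asl), beside 10.3% of all genes. In ΔRRE alone 0 of 9 passed (limma), beside 4.57% of all genes; Asl and Arg1 had an unadjusted p under 0.05, of 0.0060 and 0.0118. Without the 2 libraries that stood apart these p-values were 0.0234 and 0.0699 (limma), and the ΔRRE amplitude of Arg1 was 0.21 in place of 0.35. By the looser criteria of the study, applied with the unadjusted p of the wave under 0.3, a peak-to-trough ratio over 1.5 and a limit on the spread, Asl and Slc25a15 counted as rhythmic in WT (2 of 9, beside 37.0% of all genes). In ΔRRE, Asl, Arg1 and Gls2 met these criteria (3 of 9, beside 35.4% of all genes). Without the 2 libraries that stood apart Arg1 and Gls2 did not meet them, and the ΔRRE amplitude of Gls2 was 0.23 in place of 0.31. CT10 and CT14 then hold 1 ΔRRE library each, so the limit on the spread could not be applied at those times. No member passed the test of a difference in rhythm between the genotypes (0 of 9 in limma, beside 0.00889% of all genes), and 0 members and 319 of all genes had an unadjusted p under 0.05 in that test. The two-sided exact permutation p of this difference ranged from 0.153 for Arg1 to 0.7005 for Asl, where the smallest p possible with 23328 divisions of the libraries is 4.287e-05.

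Mean levels of the 2 genotypes were compared with time as a factor. None of the 9 members passed an adjusted p under 0.05 (limma, 0 members, beside 0% of all genes), and 1 member, Slc25a15, had an unadjusted p under 0.05, as had 1002 of all genes (8.91%). Of the members, 6 of 9 had a higher fitted mean in ΔRRE, as had 65.5% of all genes tested. The median difference, ΔRRE minus WT, was 0.12 for the members and 0.04 for all genes on the log2 scale. The median of the members rested in part on the 2 libraries that stood apart. Without them the differences were -0.04 (Cps1), -0.01 (Otc), 0.03 (Ass1), 0.09 (Asl), 0.02 (Arg1), 0.02 (Nags), 0.16 (Slc25a15), 0.09 (Gls2) and -0.02 (Glul).

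**Figure D3:**
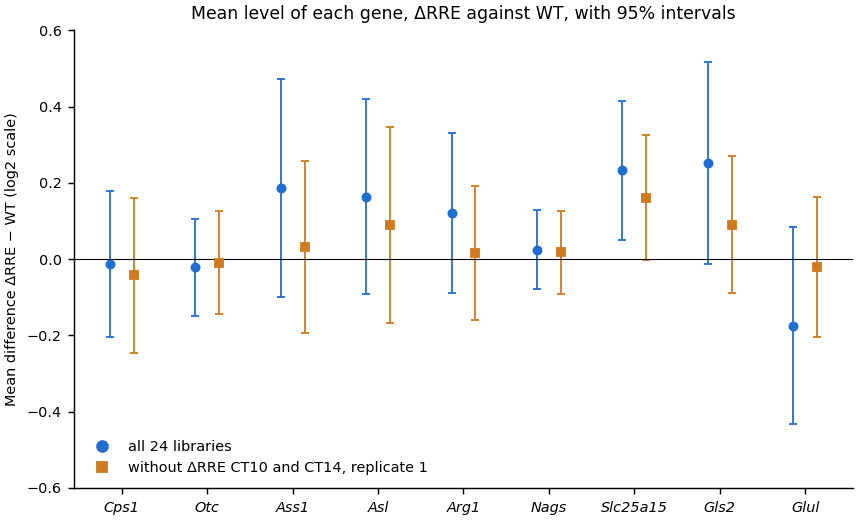
Difference in mean level, ΔRRE minus WT, on the log2 scale (vertical axis) with 95% intervals, for all 24 libraries (blue circles) and without ΔRRE CT10 replicate 1 and ΔRRE CT14 replicate 1 (orange squares). With all libraries the interval of Slc25a15, 0.05 to 0.42, is the only one that lies wholly above 0. Without the 2 libraries the values of Gls2, Ass1, Arg1 and Glul move to 0.09, 0.03, 0.02 and -0.02.

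Slc25a15, at chr8:22375551-22398597 on the minus strand, with 7 exons in the principal transcript, encodes the carrier that exchanges ornithine for citrulline across the inner mitochondrial membrane. The WT libraries (replicates 1 and 2) held 103 and 94.2 at CT2, 102 and 89.4 at CT6, 59.6 and 64.8 at CT10, 70.0 and 90.0 at CT14, 94.4 and 82.1 at CT18 and 93.7 and 98.9 at CT22, in FPKM of Slc25a15. In ΔRRE, the Slc25a15 values were 116 and 116 at CT2, 85.4 and 129.8 at CT6, 88.7 and 95.6 at CT10, 140.2 and 86.7 at CT14, 88.3 and 84.3 at CT18 and 94.8 and 99.7 at CT22. At CT10 both WT libraries, 59.6 and 64.8 FPKM, lay below every other library of either genotype, and both ΔRRE libraries of that time, 88.7 and 95.6 FPKM, lay above them. The groups also did not overlap at CT2, where both ΔRRE libraries were higher, and they overlapped at the other 4 times. With 2 libraries against 2, such separation at a time is frequent without any difference. Its share over all genes was not counted, here or for the genes below.

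Slc25a15 was 0.23 ± 0.09 (SE) higher in ΔRRE on the log2 scale, with a higher mean at 5 of 6 times (12 against 12 libraries; two-sided exact permutation p = 0.0199; limma, adjusted p over all genes = 0.445). Without the 2 libraries that stood apart the difference was 0.16, with an interval from -0.003 to 0.32 (limma, adjusted p = 0.702). The wave of Slc25a15 over both genotypes had an amplitude of 0.16 and a peak near CT1 (CT0.96), which did not pass the test (limma, adjusted p = 0.146). Without ΔRRE CT14 replicate 1 the same test gave an adjusted p of 0.012, and without both libraries the amplitude was 0.23 with an adjusted p of 0.0172, so 1 library decided this call.

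Gls2 encodes the liver form of glutaminase, which frees ammonia from glutamine, and lies at chr10:128194457-128210004 on the plus strand, with 18 exons in the principal transcript. The WT libraries (replicates 1 and 2) held 149.7 and 122 at CT2, 131 and 165 at CT6, 92.1 and 139.6 at CT10, 135 and 149 at CT14, 135 and 95.7 at CT18 and 129.6 and 116 at CT22, in FPKM of Gls2. In ΔRRE, the Gls2 values were 149 and 148 at CT2, 139.8 and 192 at CT6, 273 and 138 at CT10, 248 and 120.5 at CT14, 120.4 and 117 at CT18 and 129 and 133 at CT22. The 2 ΔRRE libraries that stood apart, at 273 and 248 FPKM, lay above all others, which reached 192 FPKM at most. At none of the 6 times were both ΔRRE libraries above both WT libraries, although the ΔRRE mean was the higher at 6 of 6 times. The difference was 0.25 ± 0.13 (SE, log2 scale; two-sided exact permutation p = 0.0785; limma, adjusted p = 0.582), and 0.09 without those 2 libraries. Gls2 overlaps Spryd4 on the other strand, which had a median of 14.5 FPKM.

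Glul, at chr1:153899944-153909723 on the plus strand, with 7 exons in the principal transcript, encodes glutamine synthetase, which joins ammonia to glutamate in pericentral cells. The WT libraries (replicates 1 and 2) held 277 and 283 at CT2, 346 and 266 at CT6, 354 and 262 at CT10, 289 and 268 at CT14, 201 and 267 at CT18 and 259.7 and 273 at CT22, in FPKM of Glul. In ΔRRE, the Glul values were 328 and 249 at CT2, 249 and 325 at CT6, 163 and 332 at CT10, 147 and 275 at CT14, 199 and 301 at CT18 and 247 and 217 at CT22. The same 2 ΔRRE libraries were the lowest for Glul, at 163 and 147 FPKM, where every other library held at least 199 FPKM. The mean difference was -0.17 ± 0.12 (SE, log2 scale; two-sided exact permutation p = 0.215; limma, adjusted p = 0.726), and -0.02 without them. The pooled wave of Glul had an amplitude of 0.17 ± 0.08 (SE, log2 scale) and did not pass the test (limma, adjusted p = 0.259). Nags, which passed, had a like amplitude of 0.17. Without the 2 libraries that stood apart the amplitudes were 0.18 for Glul and 0.16 for Nags. The gene shares sequence with a processed pseudogene, Glns-ps1, which had a median of 0.666 FPKM, and Mir8114 lies within it on the same strand and was listed with a median of 143 FPKM.

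Beside these values of Gls2 and Glul, the 6 periportal markers summed to 1082 to 2125 FPKM in WT and 1118 to 3284 FPKM in ΔRRE, with 5 of 6 higher on average in ΔRRE. The 7 pericentral markers summed to 2746 to 4629 FPKM in WT and 2555 to 4589 FPKM in ΔRRE, with 2 of 7 higher in ΔRRE, and no marker of either list was at 0 in any library. The 5 erythroid markers summed to 466 to 1537 FPKM in WT and 537 to 4451 FPKM in ΔRRE, all 5 higher on average in ΔRRE. Beside these counts, 65.5% of all genes tested had a higher fitted mean in ΔRRE. The sums and counts include the 2 libraries that stood apart and were not made without them, so they do not describe the genotypes apart from those libraries. The part of these markers in the levels of Gls2, Glul, Ass1 and Arg1 was not tested.

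**Figure D4:**
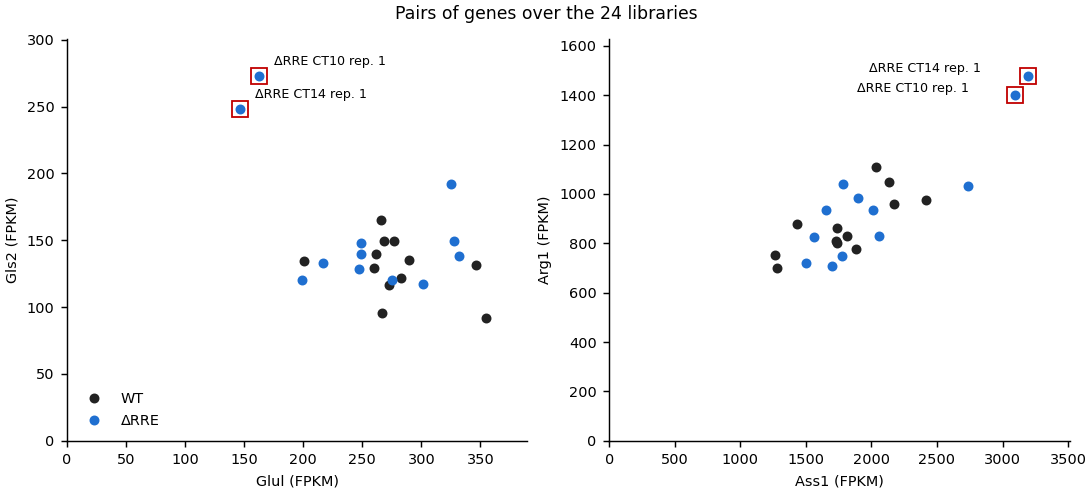
FPKM of Gls2 against Glul (left) and of Arg1 against Ass1 (right), 1 point per library, both axes from 0; black is WT, blue ΔRRE, and red squares frame ΔRRE CT10 replicate 1 and ΔRRE CT14 replicate 1. The framed libraries lie at 273 and 248 FPKM of Gls2 with 163 and 147 FPKM of Glul, and at 1399 and 1479.5 FPKM of Arg1 with 3098 and 3193 FPKM of Ass1, away from the other 22.

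Ass1 encodes argininosuccinate synthase, which joins citrulline to aspartate, and lies at chr2:31470207-31520672 on the plus strand, with 16 exons in the principal transcript. Over the WT libraries it ranged from 1261 to 2415 FPKM with a median of 1777 FPKM, and over the ΔRRE libraries from 1499 to 3193 FPKM with a median of 1840.2 FPKM. At CT10, WT held 1261 and 1436 FPKM, both below the ΔRRE libraries of that time, 3098 and 1781 FPKM. At CT22 both ΔRRE libraries lay below both of WT, and at the other 4 times the genotypes overlapped. The mean difference was 0.19 ± 0.14 (SE, log2 scale; two-sided exact permutation p = 0.225; limma, adjusted p = 0.741), and 0.03 without the 2 libraries that stood apart. A processed pseudogene, Gm5424, is 99.5% identical to the Ass1 transcript over 1240 bases and was listed with a median of 506 FPKM, so reads of both may be split and the level of Ass1 is uncertain to that extent.

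Arg1, at chr10:24915221-24927484 on the minus strand, with 8 exons in the principal transcript, encodes the arginase of liver cytosol, which releases urea. It ranged from 702 to 1109 FPKM in WT, with a median of 846 FPKM, and from 707 to 1479.5 FPKM in ΔRRE, with a median of 935 FPKM. At CT10 both ΔRRE libraries (1399 and 1041 FPKM) lay above both of WT (752 and 877 FPKM), and at CT22 both lay below. The mean difference was 0.12 ± 0.10 (SE, log2 scale; two-sided exact permutation p = 0.264; limma, adjusted p = 0.783), and 0.02 without the 2 libraries that stood apart. The pooled wave, of amplitude 0.20 with a peak at CT10.7, did not pass the test (limma, adjusted p = 0.0803), and passed it only without WT CT10 replicate 1 (0.0334).

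The 2 mitochondrial enzymes that open the cycle had the smallest pooled amplitudes of the 9 over all 24 libraries. Cps1, carbamoyl phosphate synthetase, lies at chr1:67123026-67231259 on the plus strand, with 38 exons in the principal transcript. It ranged from 655 to 1087 FPKM in WT, with a median of 752 FPKM, and from 562 to 946 FPKM in ΔRRE, with a median of 799 FPKM. The mean difference was -0.01 with an interval from -0.21 to 0.18 on the log2 scale (two-sided exact permutation p = 0.881; limma, adjusted p = 0.982). The pooled wave had an amplitude of 0.04 ± 0.06 (SE, log2 scale; limma, adjusted p = 0.864).

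Otc, ornithine transcarbamylase, is X-linked and lies at chrX:10252305-10321024 on the plus strand, with 10 exons in the principal transcript. It ranged from 140.4 to 205 FPKM in WT and from 159.9 to 194 FPKM in ΔRRE, with medians of 178 and 179 FPKM, and the genotypes overlapped at all 6 times. The mean difference was -0.02 with an interval from -0.15 to 0.11 on the log2 scale (two-sided exact permutation p = 0.728; limma, adjusted p = 0.954). Its highest and lowest time means, 184 FPKM at CT10 and 177 FPKM at CT2, differed by 1.04-fold. For Nags the mean difference between genotypes was 0.03 with an interval from -0.08 to 0.13 (two-sided exact permutation p = 0.5796, limma adjusted p = 0.932). For Asl it was 0.16 with an interval from -0.09 to 0.42 (two-sided exact permutation p = 0.234, limma adjusted p = 0.749). Without the 2 libraries that stood apart the difference of Asl was 0.09.

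Over the 24 libraries, Ass1, Arg1 and Gls2 varied together. Pearson's r of log2(FPKM + 0.1) was 0.862 for Ass1 and Gls2, 0.825 for Ass1 and Arg1 and 0.788 for Arg1 and Gls2, and -0.566 for Gls2 and Glul. Without the 2 libraries that stood apart, these values were 0.744, 0.669, 0.52 and -0.01. The 2 libraries were picked by their ratio of Gls2 to Glul, so a weaker negative relation of these genes without them was built in. The other 3 pairs stayed positive. The points of a correlation share the libraries and their composition, and the values are descriptions with no test.

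The tested genes most like Asl over the 24 libraries were Ahcy, which hydrolyses S-adenosylhomocysteine (r = 0.884), and Gm4737 (r = 0.882), whose sequence is 99.7% identical to that of Ahcy, so that the pair counts as 1 pattern. Their waves peaked at CT16.2 and CT16.4. Most like Nags were Ppp1r3b, which encodes a subunit that targets a phosphatase to glycogen (r = 0.886), and Chst13, a carbohydrate sulfotransferase (r = 0.861). Their waves peaked at CT19.4 and CT19.7.

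Of 25 other genes of ammonia, glutamine, glutamate, aspartate and arginine handling, 20 passed the filter and 9 of these had a rhythm over both genotypes (limma), beside 30.6% of all genes tested. Arg2, Slc25a2, Car5b and Slc14a1 had medians between 0 and 0.859 FPKM and were not tested. The median amplitude of the 20 was 0.27 on the log2 scale. The 9 rhythmic genes were 6 carriers or channels and 3 enzymes. Of these, 8 peaked between CT6.3 and CT10.7, and Gpt2 at CT13.8.

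Slc38a3, a carrier of glutamine, histidine and asparagine in the hepatocyte membrane, had the firmest rhythm. It rose from 248 FPKM at CT18 to 537 FPKM at CT10 (means of 4 libraries), with an amplitude of 0.57 ± 0.06 (SE, log2 scale) and a peak at CT9.5 (limma, adjusted p = 6.4e-07). It also passed the test in each genotype, with amplitudes of 0.62 in WT and 0.52 in ΔRRE (limma, adjusted p = 0.000456 and 0.0251). The ΔRRE call was lost without the 2 libraries that stood apart (adjusted p = 0.0632, amplitude 0.44) and without ΔRRE CT10 replicate 1 (0.0737), CT18 replicate 1 or CT18 replicate 2. Aqp9, a channel for glycerol and urea, went from 94.3 FPKM at CT18 to 184 FPKM at CT10, with an amplitude of 0.39 and a peak at CT6.8 (limma, adjusted p = 2.6e-05; WT alone 0.00594).

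Slc7a2, the hepatic carrier of arginine, ornithine and lysine, had the largest pooled amplitude among the genes called, 0.62, with means of 36.4 FPKM at CT18 and 103.6 FPKM at CT10 (limma, adjusted p = 0.00761). Slc38a2 and Slc38a4, carriers of neutral amino acids, had amplitudes of 0.46 and 0.30, with peaks at CT9.9 and CT8.8. Oat, ornithine aminotransferase, peaked at CT6.3 with an amplitude of 0.35, and Gpt2, an alanine aminotransferase, at CT13.8 with an amplitude of 0.34, the latter also in WT alone (limma, adjusted p = 0.0463). That WT call was lost in 9 of the 12 fits that left out 1 WT library, with an adjusted p of up to 0.122 without CT2 replicate 2. Slc25a12, an aspartate-glutamate carrier of mitochondria, had an amplitude of 0.28 at a mean of 2.11 to 3.19 FPKM. Sirt5, a mitochondrial deacylase that acts on CPS1, had an amplitude of 0.26 and a peak at CT6.8.

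**Figure D5:**
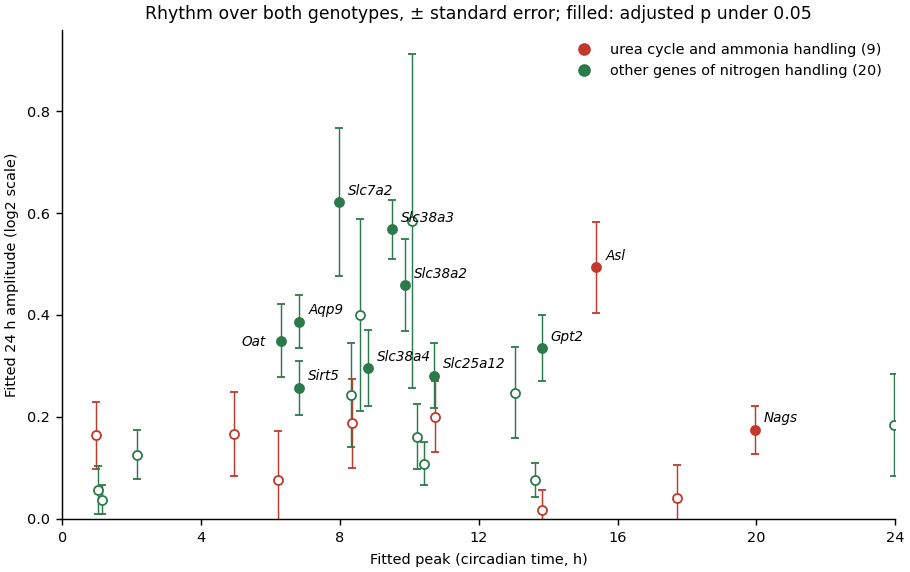
Fitted 24 h amplitude over both genotypes on the log2 scale (vertical axis, with standard errors) against fitted peak in circadian time (horizontal axis, 0 to 24 h), for the 9 members (red) and 20 other genes of nitrogen handling (green); filled symbols have an adjusted p under 0.05. Asl at CT15.4 and Nags at CT20.0 lie later than each of the 9 filled green symbols, which run from CT6.3 to CT13.8.

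None of the 20 passed the test of a difference in rhythm or in mean level between the genotypes (limma, 0 genes in each test). An unadjusted p under 0.05 was found for 0 and 3 of them in these tests, beside 2.84% and 8.91% of all genes. Those 3, named after their values were seen, were Slc38a2, Got1 and Slc25a13, each with the higher mean in ΔRRE at 6 of 6 times. Of all genes tested, 65.5% had a higher fitted mean in ΔRRE. Slc38a2 ranged from 10.0 to 24.5 FPKM in WT, with a median of 16.0 FPKM, and from 13.5 to 46.4 FPKM in ΔRRE, with a median of 18.4 FPKM. It was 0.40 higher in ΔRRE on the log2 scale (two-sided exact permutation p = 0.00253; limma, adjusted p = 0.332), and 0.35 higher without the 2 libraries that stood apart.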

How the data were processed

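RNA was measured in 24 liver libraries, 2 per genotype and time. The authors deposited FPKM per gene and library, made from poly(A)-selected directional libraries without pooling replicates; the submitters' processing notes name Trimmomatic 0.39, HISAT2 2.1.0, StringTie 1.3.5 and build mm10. FPKM sums are not scaled to a common total, and carry no counts, so no counting error is given.

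From these values, log2(FPKM + 0.1) was fitted for the 11244 genes averaging 1 FPKM or more, with limma 3.58.1 (R 4.3.3) and a variance prior with an intensity trend. A cosine and a sine of 24 h were tested together in WT, in ΔRRE and over both with genotype as a term, their interaction with genotype in 1 model, and mean level with time point as a factor. P-values were adjusted over all genes tested (Benjamini-Hochberg). Low genes' fold changes are understated on the log2(FPKM + 0.1) scale. Exact permutation tests were two-sided and enumerated every way to divide each time's 4 libraries into 2 and 2. BIO_CYCLE, the study's tool, was not run, and its p was replaced by that of the wave in the study's criteria. Gene positions are from GENCODE M21 (GRCm38), promoters from RefSeq. Scripts were tested on simulated data.

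All 9 members were named, as were other nitrogen genes that passed a test and, for each member rhythmic over both genotypes, the 2 genes of highest r; Arntl checked the labels. Of the list of other nitrogen genes, 1 that was not tested is not reported here. The members and lists were chosen with earlier results of these data known. Alternatives were other pseudocounts, filters, scaling and priors, time as a factor, the replicate number as a block and leaving out each library; leaving out both libraries that stood apart was chosen after seeing the data.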

Additional observations from a re-analysis of the deposited data

How the results depend on the processing

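The pooled calls of Asl and Nags held under every alternative run. The WT count of 1 member fell to 0 without a filter on low values, with a prior without a trend and with time point as a factor, and was between 0 and 1 when each library was left out in turn; it was 0 without CT2 replicate 1 or 2, CT6 replicate 2, CT10 replicate 2, CT14 replicate 1, CT18 replicate 1 or CT22 replicate 2, and without CT14 replicate 2 Slc25a15 passed in place of Asl. With 1 library left out, the ΔRRE count was between 0 and 1 (Asl passed without CT2 replicate 1), and the study's criteria gave 2 to 4 members in WT (4 without CT18 replicate 2) and 3 to 6 in ΔRRE (5 without CT6 replicate 1, 6 without CT10 or CT14 replicate 2). Without both libraries that stood apart Arg1 and Gls2 did not meet these criteria in ΔRRE. The limit on the spread could not be applied at a time left with 1 library, so these counts are unlike those from all libraries. No alternative called a member for its mean level or for a difference in rhythm, and the rhythmic count of other nitrogen genes ranged from 8 to 10. With 1 library left out, the genotype difference of Cps1 ranged from -0.0497 to 0.0387 and that of Otc from -0.0633 to 0.00119 on the log2 scale; for Nags it was -0.0163 after rescaling by the median of ratios. The causes were not tested. With the replicate block, the counts were unchanged (2 members over both genotypes, 1 in WT and 0 in ΔRRE). Libraries of the same number and time deviated together with r from -0.119 to 0.206, over 0.1 in 2 of 6 pairs. Over all 66 pairs of groups r ran from -0.138 to 0.305, with a median of 0.0669 and 20 pairs over 0.1. The highest was between ΔRRE CT10 and ΔRRE CT14, the groups of the 2 libraries that stood apart. The number is not treated as a pairing in the main fits, and a shared effect of it was not tested beyond the replicate block. FPKM without counts leave the precision of single values unknown.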

Other observations

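For members that did not pass the test of a rhythm, the most similar genes were listed after the values were seen and are given as a description over libraries that share composition. Arg1 followed Sds, serine dehydratase, with r = 0.88 over 24 libraries and 0.759 without the 2 that stood apart. Ass1 followed, after its pseudogene, Uroc1, the urocanase of histidine breakdown (0.903 and 0.829). Gls2 followed Sdsl, a serine dehydratase-like enzyme (0.899 and 0.728). For Glul the most similar gene was Slco1b2, a hepatic uptake carrier of organic anions (0.856 and 0.751). The highest r of Otc was 0.792, with mt-Tp, and its lowest -0.779, with Eif2s3x. For Cps1 the highest was 0.684, with Fam234b, and the lowest -0.76, with Vnn1.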
